A study of Mus musculus with 40 samples.

Results

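The interferon-stimulated and MHC class I genes of mouse visual cortex astrocytes were examined as a set of 46 genes, taken by gene symbol from the 25239 genes of the deposited count table. RNA was measured in GFP-positive nuclei sorted from primary visual cortex (V1) of GRfl/fl mice, in which both copies of the glucocorticoid receptor (GR) gene Nr3c1 carry loxP sites. All mice, controls included, were injected at P0-P1 with an adeno-associated virus (AAV2/5) in which the astrocyte promoter GfaABC1D drove ΔCre, an inactive Cre, for GR-Con or Cre for GR-KO. The vector linked either one to EGFP-KASH, a GFP held at the nuclear envelope, through a self-cleaving peptide and carried the microRNA-target element 4x6T. Mice were kept under normal rearing (NR) or dark rearing (DR) and were taken at P14, P21 or P28, which gave 12 groups and 40 libraries. The 4 groups at P14 and the NR groups at P21 and P28 held 3 libraries each, and the DR groups at P21 and P28 held 4 each. For each library the tissue of a male and a female mouse was pooled. An effect of Cre itself, or of the separate virus preparations, cannot be told apart from an effect of losing GR in this design. No library came from uninjected mice, so a response to the vector cannot be told apart from the level of these genes without it.

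Interferons are secreted proteins that bind receptors on the cell surface, and the type I receptor acts through the kinases Jak1 and Tyk2. These phosphorylate Stat2, which with Irf9 is part of a complex that binds interferon-stimulated response elements (ISREs) near its target genes. The targets sense foreign nucleic acid, block translation, degrade RNA, trap viruses and attach the ubiquitin-like protein Isg15, while MHC class I genes carry peptides to the cell surface. Astrocytes respond to type I and type II interferon, and many of these genes are also read at a low level in brain tissue without infection.

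To show the sequence around the start sites of the genes that the results turn on, promoter windows of 300 bases were taken from RefSeq on GRCm38.p6, the same assembly as mm10. Capitals mark the core of the ISRE, GAAANNGAA, which reads TTCNNTTTC where it lies on the other strand. The windows are written 5′ to 3′ on the strand of the gene, and adjoining capitals hold overlapping matches. Ifit1 lies at chr19:34640639-34640938 on the plus strand and holds 3 cores, Ifit3 at chr19:34583279-34583578 on the plus strand and holds 3, and Ddx60 at chr8:61927837-61928136 on the plus strand and holds 2. Rsad2 lies at chr12:26456403-26456702 on the minus strand and holds 1 core, Gbp3, in the first of its 2 windows, at chr3:142559794-142560093 on the plus strand and holds 2, and Stat2 at chr10:128270248-128270547 on the plus strand and holds 1. Tap1, at chr17:34187306-34187605 on the plus strand, is shown as a member of the antigen-processing genes whose window holds no match.
Ifit1: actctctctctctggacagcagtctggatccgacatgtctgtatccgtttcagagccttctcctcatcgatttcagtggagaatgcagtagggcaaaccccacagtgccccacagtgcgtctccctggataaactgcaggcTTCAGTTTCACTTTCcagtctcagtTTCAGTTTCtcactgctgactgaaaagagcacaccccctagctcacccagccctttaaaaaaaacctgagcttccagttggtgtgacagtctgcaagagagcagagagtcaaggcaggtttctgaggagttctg
Ifit3: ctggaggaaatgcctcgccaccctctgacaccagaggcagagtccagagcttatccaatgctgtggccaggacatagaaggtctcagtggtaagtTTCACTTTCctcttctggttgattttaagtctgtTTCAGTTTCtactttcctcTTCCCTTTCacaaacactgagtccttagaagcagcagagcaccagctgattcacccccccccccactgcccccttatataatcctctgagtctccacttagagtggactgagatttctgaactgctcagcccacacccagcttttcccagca
Ddx60: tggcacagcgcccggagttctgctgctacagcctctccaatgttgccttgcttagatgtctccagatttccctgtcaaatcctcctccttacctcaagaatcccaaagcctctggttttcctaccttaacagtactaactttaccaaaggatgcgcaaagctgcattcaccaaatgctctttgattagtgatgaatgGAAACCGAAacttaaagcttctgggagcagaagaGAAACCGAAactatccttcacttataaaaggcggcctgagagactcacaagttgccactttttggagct
Rsad2: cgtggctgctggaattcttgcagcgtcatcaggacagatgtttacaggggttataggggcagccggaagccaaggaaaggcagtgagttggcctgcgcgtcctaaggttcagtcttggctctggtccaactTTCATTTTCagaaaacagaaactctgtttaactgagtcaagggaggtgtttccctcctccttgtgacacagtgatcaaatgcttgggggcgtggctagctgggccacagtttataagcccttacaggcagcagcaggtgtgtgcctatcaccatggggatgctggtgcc
Gbp3: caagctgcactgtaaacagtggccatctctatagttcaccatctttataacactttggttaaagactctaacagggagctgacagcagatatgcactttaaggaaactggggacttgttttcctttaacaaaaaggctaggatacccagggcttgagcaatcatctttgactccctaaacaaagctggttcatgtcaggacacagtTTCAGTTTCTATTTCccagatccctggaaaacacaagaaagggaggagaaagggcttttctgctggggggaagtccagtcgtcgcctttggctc
Stat2: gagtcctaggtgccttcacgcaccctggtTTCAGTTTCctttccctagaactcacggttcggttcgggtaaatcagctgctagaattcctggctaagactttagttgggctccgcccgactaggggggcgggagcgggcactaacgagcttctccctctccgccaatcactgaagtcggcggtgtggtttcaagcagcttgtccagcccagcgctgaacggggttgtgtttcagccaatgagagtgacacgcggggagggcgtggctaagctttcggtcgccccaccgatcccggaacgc
Tap1: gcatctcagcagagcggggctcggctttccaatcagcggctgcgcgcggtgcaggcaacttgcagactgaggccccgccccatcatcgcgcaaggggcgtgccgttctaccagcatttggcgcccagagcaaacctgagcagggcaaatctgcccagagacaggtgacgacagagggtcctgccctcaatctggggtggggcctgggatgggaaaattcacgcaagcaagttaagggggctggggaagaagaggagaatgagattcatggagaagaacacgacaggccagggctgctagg

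Of the 46 genes, 36 matched a window by symbol, and 19 of these (52.8%) held the ISRE core in at least 1 window, against 9.76% of the 27025 genes with a window. The STAT element TTCNNNGAA was found in 8 of the 36 (22.2%), against 9.55% of all genes. The palindromic glucocorticoid response element, searched as a single written pattern on both strands, was found in none of the 36 and in 0.537% of all genes. By role, the ISRE core was present in 3 of 3 sensors, 5 of 7 genes acting on RNA and translation, 5 of 7 antiviral effectors, 3 of 5 genes of Isg15 and ubiquitin conjugation, 1 of 4 transcription factors, 1 of 4 other induced genes and 1 of 6 MHC class I genes. These are matches of letters, not shown binding sites. Oas2, Usp18, Mx1, Mx2, Dhx58, Rtp4, Parp9, Parp14, Zbp1 and Ifi27 had no entry.

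The libraries held 17240294 to 49221787 counts over 17322 to 19795 detected genes. The labelled cell type was checked against 10 astrocyte markers, whose summed level was 10320 to 16420 CPM (counts per 1000000 counts, scaled by trimmed mean normalisation) in every library. Markers of other cells were present as well, led by 8 neuronal markers at 1478 to 3359 CPM and 6 oligodendrocyte markers at 219 to 1364 CPM. Summed levels were 125 to 186 CPM for 8 mural and fibroblast markers and 22.5 to 75.9 CPM for 8 endothelial markers. They were 29.2 to 67.6 CPM for 4 oligodendrocyte precursor markers, of which Gpr17 was listed at 0. For 12 microglial markers, of which P2ry12 was listed at 0, they were 85.8 to 133 CPM. For 12 macrophage and lymphocyte markers they were 6.35 to 13.4 CPM. Nr3c1 counts over the whole gene cannot check the deletion, since they do not separate the floxed segment. Nr3c1 was 229, 225 and 216 CPM in GR-Con and 287, 249 and 269 CPM in GR-KO at P21 NR, and it was called for GR loss at P21 DR alone, where it was higher (log2 0.26, edgeR adjusted p = 0.0473). Hif3a, a glucocorticoid-induced gene chosen here after its values were seen, was 71.7 to 241 CPM in GR-Con and 16.1 to 33.3 CPM in GR-KO libraries, with no overlap.

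Most of the 46 genes were read at a low level. Of 43 that passed the filter on low counts, 11 had a mean over 10 CPM, 22 lay between 1 and 10 CPM, and 10 lay below 1 CPM. Zbp1, a sensor of Z-form nucleic acid, had 143 counts in all and was not tested. B2m, the light chain of MHC class I, and Ifi27 were listed at 0 in all 40 libraries. In RefSeq, B2m lies wholly inside Patl2 and Ifi27 inside Ifi27l2a, and Ifit1 is wholly covered by Ifit1bl1, so that reads over these genes may not have been assigned to 1 gene and the value of Ifit1 is uncertain to that extent.

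Per kilobase of gene body, the level was highest for Adar, the RNA editing enzyme (2.60 CPM per kb), Irf9 (1.73), the kinase Eif2ak2 or PKR (1.70) and the MHC class I heavy chain H2-K1 (1.46). Among tested genes it was lowest for Sp100, a nuclear body protein (0.0125 CPM per kb), Oas1a, an oligoadenylate synthetase (0.0159), and Rtp4 (0.0177). Lengths were RefSeq spans, 94.0 kb for Rtp4 with overlap of Masp1, while the paper counted on the UCSC refGene annotation. The place of Rtp4 is uncertain to that extent. Adar was also the steadiest, at 81.1 to 130 CPM over the 40 libraries, with no call in any comparison. Ifit2, Cmpk2 and Dhx58 had no call either, and the other 39 tested genes were called in 1 to 10 of the 28 comparisons.

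The mean of log2(CPM + 1) over the 43 genes placed 2 libraries above all others. P21 NR GR-KO replicate 2 stood at 3.20 and P28 NR GR-Con replicate 2 at 3.11, against a median of 2.30 over the 40 libraries and a spread within groups of 0.185 (pooled SD). A dark-reared library, P21 DR GR-KO replicate 4, came next at 2.80. All P14 groups were low and close together, with means of 2.12 to 2.21. At P21 the group means were 2.35 ± 0.15 for NR GR-Con, 2.90 ± 0.26 for NR GR-KO, 2.59 ± 0.093 for DR GR-Con and 2.58 ± 0.22 for DR GR-KO (SD, n = 3 for NR and n = 4 for DR). At P28 they were 2.55 ± 0.49 for NR GR-Con, 2.09 ± 0.069 for NR GR-KO, 2.33 ± 0.10 for DR GR-Con and 2.26 ± 0.11 for DR GR-KO (SD, n = 3 and n = 4 likewise). The P28 NR GR-Con mean rested on its replicate 2, since replicates 1 and 3 stood at 2.19 and 2.35.

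**Figure D1:**
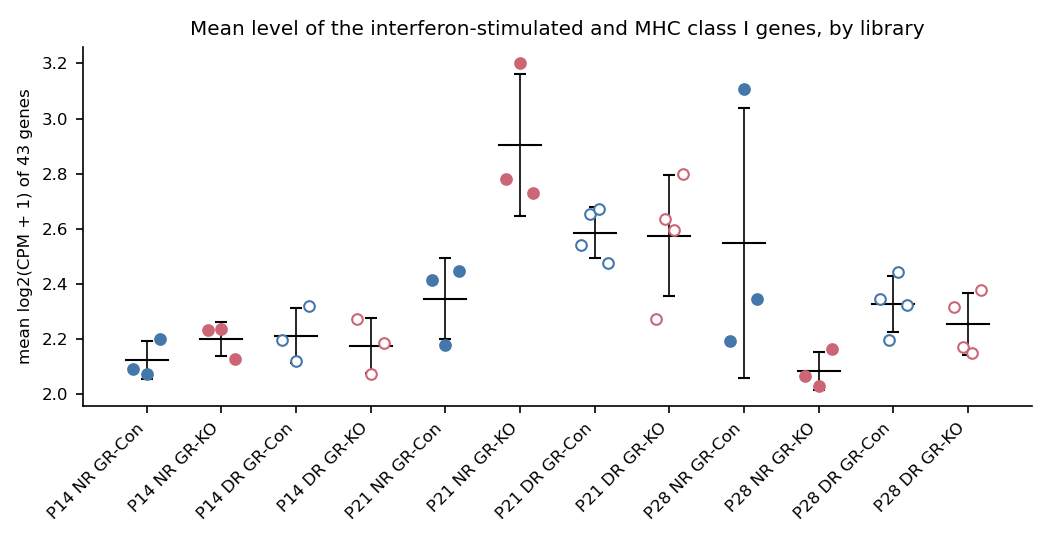
Mean log2(CPM + 1) of the 43 tested genes in each of the 40 libraries (1 point per library, blue for GR-Con and red for GR-KO, filled for NR and open for DR), with the group mean as a black line and the SD as an error bar. The 3 P21 NR GR-KO libraries (2.73 to 3.20) lie above the 3 P21 NR GR-Con libraries (2.18 to 2.45), and 1 P28 NR GR-Con library (3.11) lies apart from the other 2 of its group.

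Markers of other cells were read in the 2 highest libraries. In P21 NR GR-KO replicate 2 microglial markers summed to 110 CPM and macrophage and lymphocyte markers to 8.44 CPM, endothelial markers to 22.5 CPM, the lowest of the 40 libraries, and 6 choroid plexus and ependyma markers to 12.6 CPM, against a median of 4.28 CPM. In P28 NR GR-Con replicate 2 the same sums were 126, 9.62, 50.5 and 2.37 CPM. Their part in the level of these libraries was not tested. In bulk samples such as these, fewer cells of a type and less RNA per cell cannot be told apart, here as in every comparison that follows.

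**Figure D2:**
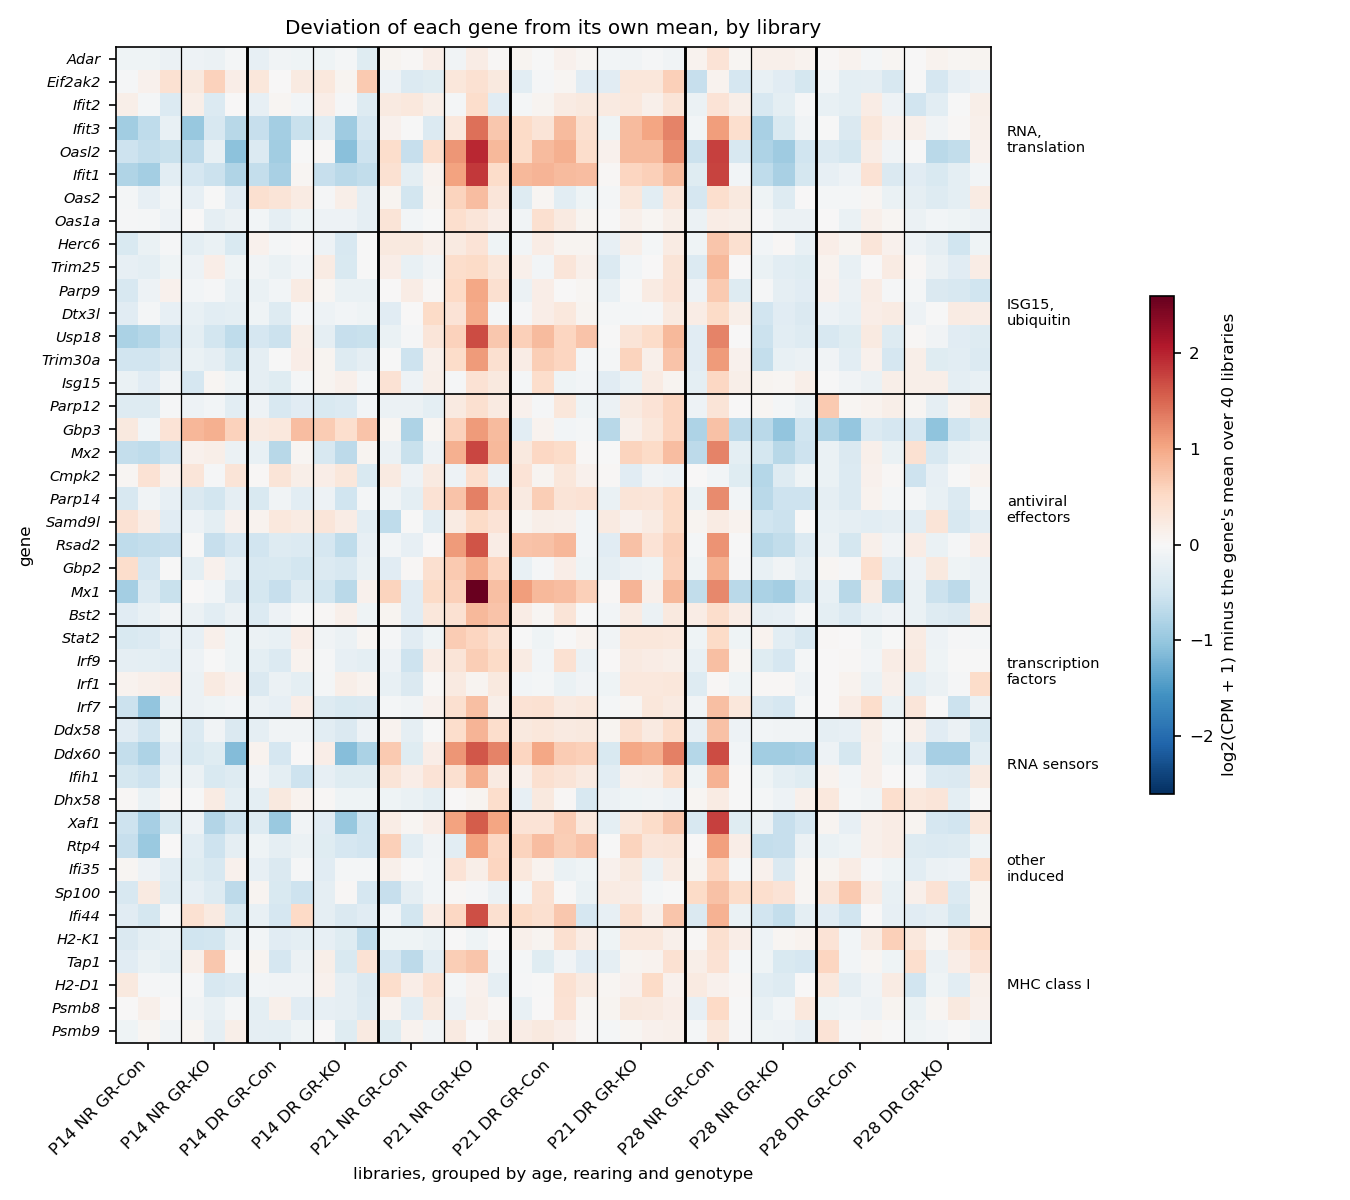
Deviation of each of the 43 genes (vertical axis, grouped by role) from its own mean over the 40 libraries, in log2(CPM + 1), with libraries along the horizontal axis grouped by age, rearing and genotype. Red cells are above the gene's mean and blue cells below. By mean level the highest columns are P21 NR GR-KO replicate 2 (3.20) and P28 NR GR-Con replicate 2 (3.11). Next are P21 DR GR-KO replicate 4 (2.80) and P21 NR GR-KO replicates 1 (2.78) and 3 (2.73).

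In normal rearing at P21, the effect of losing GR was asked of each gene by comparing GR-KO with GR-Con, 3 libraries each. Of the 43 genes, 13 rose and none fell at an adjusted p below 0.05 and an absolute log2 fold change above 0.1, where 7.23% of the 17106 genes tested were called (4.67% higher). The fold change was positive in 37 of the 43, with a median of 0.78 against 0.015 over all genes. In 30 of the 43 every GR-KO library lay above every GR-Con library, which held for 13% of all genes, and this included all 13 called genes. Antiviral effectors gave 5 of the 13 calls, from 10 genes, and transcription factors gave 2 from 4.

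Stat2, which works with Irf9 in the interferon transcription complex, was 21.4, 17.5 and 20.0 CPM in GR-Con and 35.1, 32.4 and 28.9 CPM in GR-KO. The groups did not overlap, and Stat2 rose by a log2 fold change of 0.72 ± 0.15 (SE, edgeR adjusted p = 0.00125). Mx2, a dynamin-like antiviral GTPase, was 7.48, 5.34 and 7.55 CPM in GR-Con and 16.8, 30.3 and 15.9 CPM in GR-KO. All 3 GR-KO libraries were above the highest control, and the log2 fold change was 1.63 ± 0.35 (SE, adjusted p = 0.00225). Stat2 and Mx2 stayed called when any 1 of the 6 libraries was left out, with adjusted p of 0.00156 to 0.0155 and 0.00228 to 0.0300.

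Tap1, a subunit of the transporter that loads peptides for MHC class I, was 2.15, 1.63 and 2.52 CPM in GR-Con and 5.65, 6.02 and 2.99 CPM in GR-KO. It rose by 1.22 ± 0.30 on the log2 scale (SE, edgeR adjusted p = 0.00782), with replicate 3 of GR-KO close to the controls. Rsad2, or viperin, which makes a chain-terminating nucleotide, was 1.44, 1.199 and 1.59 CPM in GR-Con and 4.52, 6.94 and 1.92 CPM in GR-KO. It rose by 1.66 ± 0.45 (SE, adjusted p = 0.0159), again with replicate 3 of GR-KO just above the controls.

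Ddx58, the RNA sensor RIG-I, was 15.1, 11.9 and 14.1 CPM in GR-Con and 19.7, 26.9 and 19.9 CPM in GR-KO, an increase of 0.69 ± 0.18 (SE, log2, edgeR adjusted p = 0.0141). Parp14, an ADP-ribosyltransferase, was 5.50, 4.80 and 7.97 CPM in GR-Con and 10.5, 16.05 and 9.51 CPM in GR-KO, an increase of 0.97 ± 0.28 (SE, log2, adjusted p = 0.0235). In both genes replicate 2 of GR-KO was the highest library and the groups did not overlap. The other 7 that rose were Irf9 (log2 fold change 0.67), Gbp3, a guanylate-binding GTPase (1.09), Usp18, the protease that removes Isg15 and damps the type I receptor (1.22), Eif2ak2 (0.60), Samd9l (0.87), Ifit3, which binds RNA with other Ifit proteins (1.11), and Parp9 (0.66). Their adjusted p lay between 0.0289 and 0.0490.

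Genes of the same roles that did not pass the test included Adar, at 106, 104 and 114 CPM in GR-Con and 94.9, 116 and 104 CPM in GR-KO. H2-K1 was 5.98, 5.99 and 5.75 CPM in GR-Con and 6.47, 6.02 and 6.62 CPM in GR-KO, with a log2 difference of 0.11 ± 0.17 (SE). Herc6, the main Isg15 ligase of the mouse, was 57.3, 56.7 and 52.4 CPM in GR-Con and 56.4, 61.5 and 44.3 CPM in GR-KO. The groups overlapped for Adar and Herc6, and for H2-K1 they lay side by side without a gap. Parp12, the antiviral effector with the highest mean level, was 22.6, 22.7 and 21.1 CPM in GR-Con and 29.7, 34.0 and 30.0 CPM in GR-KO, apart but without a call. H2-D1, the other classical heavy chain measured, had a negative difference of −0.78 ± 0.41 (SE, edgeR adjusted p = 0.270).

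Only part of the 13 calls at P21 held for every choice of libraries. Without GR-Con replicate 1 there were 6 calls, without GR-Con replicate 2 there were 3 (Mx2, Stat2 and Samd9l), and without GR-KO replicate 2 there were 3 (Mx2, Stat2 and Tap1), while the direction stayed positive for all 13. Several marker sums moved with this comparison. Between GR-Con and GR-KO at P21 NR, microglial markers summed to 112 to 119 and 91.8 to 110 CPM, neuronal markers to 3231 to 3358 and 2007 to 3213 CPM, and oligodendrocyte markers to 996 to 1198 and 656 to 975 CPM. Oligodendrocyte precursor markers summed to 43.3 to 46.8 and 31.2 to 37.9 CPM, and astrocyte markers to 14599.9 to 15452 and 12059.9 to 14564 CPM. All 5 sums were lower in GR-KO with no overlap, while choroid plexus and ependyma markers were higher, at 1.79 to 3.92 CPM in GR-Con and at 35.8, 12.6 and 6.25 CPM in GR-KO. Endothelial sums overlapped, at 23.3 to 39.9 and 22.5 to 24.4 CPM. Their part in the result was not tested.

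At P28 in normal rearing the same comparison ran the other way. Of the 43 genes, 10 fell and none rose with GR-KO, where 4.94% of all genes were called (1.54% lower). With the compared groups alone in the model 1 member was called, and DESeq2 called 16. The fold change was negative in 42 of 43, with a median of −0.67 against −0.018 over all genes. In 14 of the 43 every GR-KO library lay below every GR-Con library, against 8.54% of all genes, and 7 of the 10 called genes were among them.

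Parp14 was 5.11, 15.2 and 5.53 CPM in GR-Con and 3.24, 3.74 and 3.74 CPM in GR-KO at P28 NR. It fell by 1.27 ± 0.27 on the log2 scale (SE, edgeR adjusted p = 0.00323), and the groups did not overlap. Ifit1, which binds RNA lacking a methylated cap, was 1.54, 9.68 and 1.99 CPM in GR-Con and 1.00, 0.766 and 1.29 CPM in GR-KO, a change of −2.10 ± 0.48 (SE, adjusted p = 0.00564). Replicate 2 of GR-Con was far above its own group in both genes.

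Rsad2 was 1.49, 4.80 and 1.54 CPM in GR-Con and 0.564, 0.650 and 1.01 CPM in GR-KO, a change of −1.81 ± 0.45 (SE, log2, edgeR adjusted p = 0.0120). Dtx3l, a ubiquitin ligase that works with Parp9, was 4.63, 5.97 and 4.53 CPM in GR-Con and 2.52, 3.02 and 2.80 CPM in GR-KO, a change of −0.86 ± 0.21 (SE, log2, adjusted p = 0.0129). In Dtx3l the 3 controls lay closest together of these genes. Ddx60, a helicase that assists RIG-I, was 4.97, 31.4 and 8.52 CPM in GR-Con and 4.34, 4.32 and 4.47 CPM in GR-KO, a change of −1.77 ± 0.44 (SE, log2, adjusted p = 0.0130). Rtp4 was 1.54, 4.23 and 1.81 CPM in GR-Con and 0.637, 0.650 and 1.26 CPM in GR-KO, a change of −1.57 ± 0.42 (SE, log2, adjusted p = 0.0215). The remaining 4 that fell were Oasl2 (−1.98), Ifit3 (−1.16), Usp18 (−1.15) and Xaf1, a partner of the apoptosis inhibitor XIAP (−1.39), with adjusted p of 0.0271 to 0.0498.

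Xaf1 showed how far 1 library carried the P28 comparison, at 2.50, 14.99 and 2.72 CPM in GR-Con and 3.19, 2.07 and 2.43 CPM in GR-KO. Without GR-Con replicate 2 its log2 fold change was −0.025, and none of the 10 genes was called. Without GR-Con replicate 1 there were 17 calls, without GR-KO replicate 1 there were 2 and without GR-KO replicate 2 there were 2. The fold change of all 10 stayed negative in every case, and Dtx3l moved least, between −0.93 and −0.72. Microglial markers summed to 120 to 131 CPM in GR-Con and 96.6 to 117 CPM in GR-KO at P28 NR, so that they were lower in the same group as the interferon-stimulated genes. The other 8 marker sums overlapped between the groups, and the part of any of them in the result was not tested.

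In NR, 4 genes, Ifit3, Parp14, Rsad2 and Usp18, were called in both comparisons with opposite sign. The difference between the GR effect at P28 and that at P21 was tested directly in NR, and 10 of the 43 genes had a lower GR effect at P28, with 24 called among all 17106 genes (0.14%, 0.129% lower). The 10 were Parp14 (log2 difference −2.24, adjusted p = 0.0100), Mx2 (−2.70, 0.0107), Rsad2 (−3.47, 0.0107), Ifit1 (−3.54, 0.0131), Stat2 (−1.03, 0.0201), Ddx60 (−2.97, 0.0323), Usp18 (−2.36, 0.0381), Ifit3 (−2.27, 0.0385), Irf9 (−1.25, 0.0444) and Tap1 (−1.85, 0.0477). A model of the compared groups alone called 0 members in this test (33 had an unadjusted p below 0.05 in the joint model), and DESeq2 called 19. The difference was negative in 42 of the 43 genes. The NR libraries held 17240294 to 28137389 counts at P21 and 32241288 to 48844115 at P28, so that depth and age cannot be told apart here. Mx2, Parp14 and Rsad2 stayed called when any library but 1 was left out. The exception was P28 NR GR-Con replicate 2, without which 0 of the 10 were called, with P21 NR GR-Con replicates 1 and 2 giving 6 and 3 when left out, P21 NR GR-KO replicate 2 giving 4, and P28 NR GR-Con replicate 1, GR-KO replicate 1 and GR-KO replicate 2 giving 16, 5 and 3. When the 2 libraries of highest level were both left out, an alternative chosen after seeing the data, the P21 comparison kept 7 of its 13 calls among 8, the P28 comparison kept only Dtx3l, and the test of the difference called none.

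**Figure D3:**
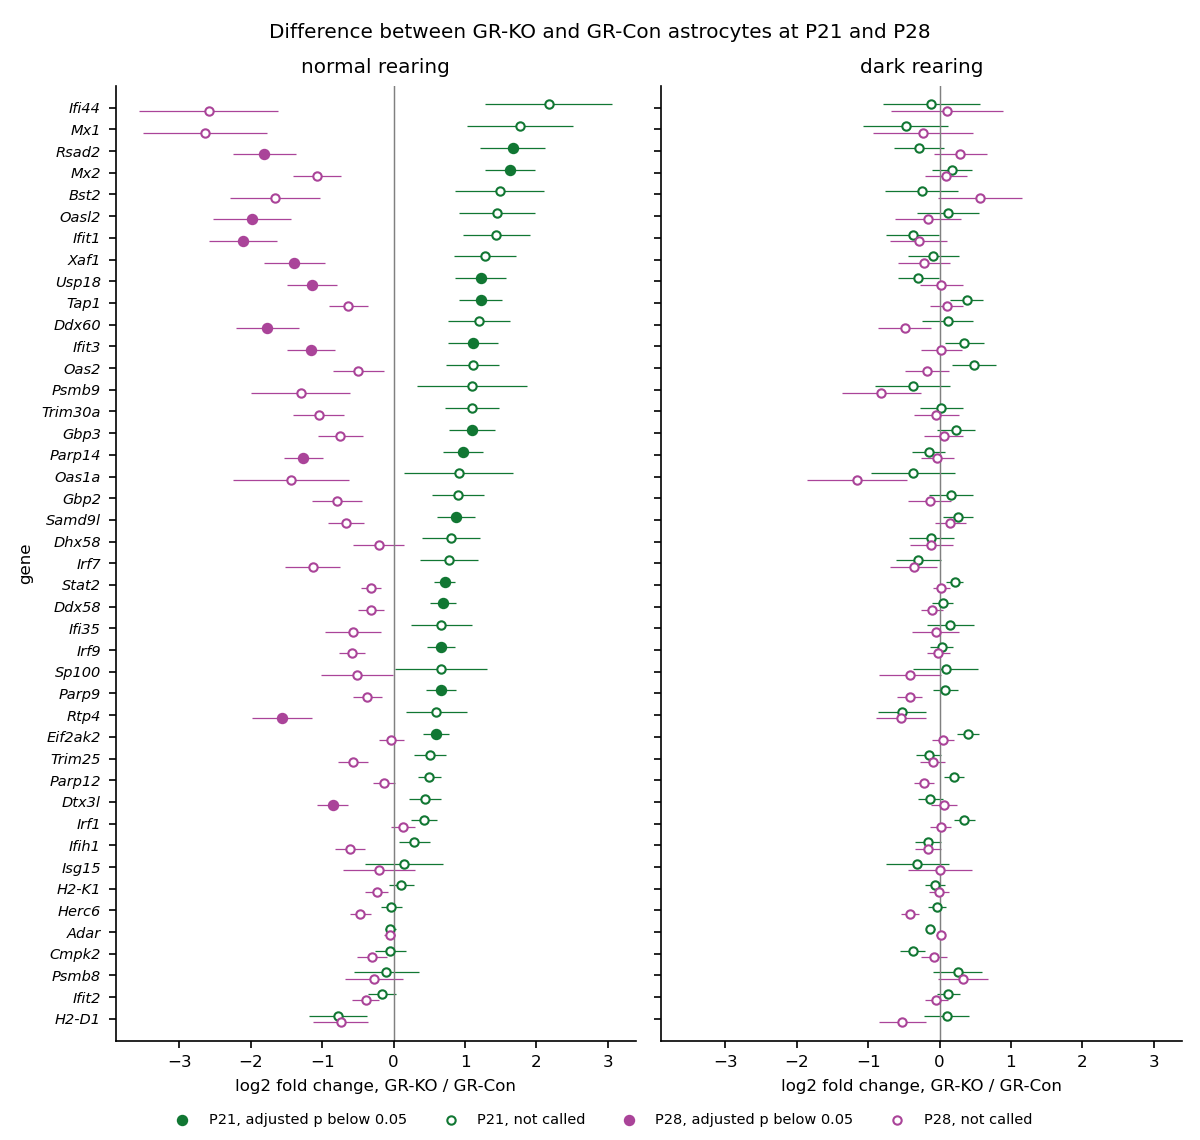
Log2 fold change of GR-KO over GR-Con (horizontal axis, with SE as bars) for each of the 43 genes (vertical axis, ordered by the value at P21 NR), in normal rearing (left) and dark rearing (right), with P21 in green, P28 in purple and filled points for genes that passed the thresholds. In normal rearing 37 of 43 values are positive at P21 and 42 of 43 negative at P28, and in dark rearing no point is filled.

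In dark rearing, with 4 libraries a group at P21 and P28, no gene of the set was called for GR loss. At P21 DR, 6.68% of all genes were called, the members' median was 0.027, and 3 members had an unadjusted p below 0.05. At P28 DR, 2.84% of all genes were called, the median was −0.055, and 2 members had an unadjusted p below 0.05. DESeq2 called 0 members at P21 DR and 1 at P28 DR, and at P21 DR 1 member was called by edgeR without GR-KO replicate 1. Herc6 came nearest at P28 DR, at 53.5, 49.7, 59.1 and 51.4 CPM in GR-Con and 43.3, 40.1, 32.7 and 43.7 CPM in GR-KO, with no overlap (log2 −0.42 ± 0.13 SE, edgeR adjusted p = 0.0682).

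At P21 DR the levels of Stat2 were 21.6, 20.1, 21.7 and 23.2 CPM in GR-Con and 20.4, 26.7, 26.8 and 26.4 CPM in GR-KO. Mx2 was 10.2, 12.7, 12.02 and 8.55 CPM in GR-Con and 8.31, 13.1, 12.3 and 15.5 CPM in GR-KO. The groups overlapped in both genes. The GR effect in NR was compared with that in DR within each age, and no member was called at P21 (0% of all genes) or at P28 (0.00585%). Unadjusted p was below 0.05 for 19 members at P21 and 17 at P28, and DESeq2 called 0 at both ages. The GR effects at P28 and P21 in DR did not differ in a call for any member either (0.00585% of all genes, 2 members with an unadjusted p below 0.05, 0 by DESeq2).

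At P14 no member was called for GR loss in NR (1.11% of all genes, 5 members with an unadjusted p below 0.05) or in DR (0.275%, 1 member), and DESeq2 called 0 in each. With the compared groups alone 1 was called in NR. Tap1 came nearest in NR, at 2.45, 2.78 and 2.56 CPM in GR-Con and 3.67, 5.91 and 3.21 CPM in GR-KO (log2 0.71 ± 0.28 SE, edgeR adjusted p = 0.346). Mx2 at P14 NR was 5.10, 4.97 and 5.51 CPM in GR-Con and 9.23, 9.48 and 7.46 CPM in GR-KO. Neither gene overlapped between its groups at P14 NR, and neither passed the test.

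With the 6 conditions weighted equally, GR loss raised 3 members and lowered 2, where 16% of all genes were called (10.5% higher and 5.47% lower). Eif2ak2 rose by 0.23 ± 0.069 (SE, log2, edgeR adjusted p = 0.0156), Tap1 by 0.35 ± 0.11 (adjusted p = 0.0229) and Irf1, a transcription factor of the interferon-gamma response, by 0.21 ± 0.067 (adjusted p = 0.0292). Herc6 fell by 0.21 ± 0.057 (SE, adjusted p = 0.00847) and H2-D1 fell by 0.49 ± 0.15 (adjusted p = 0.0223). The median of the 43 was −0.0042. Without P28 NR GR-Con replicate 2 there were 8 calls and without P14 NR GR-KO replicate 2 there were 3.

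Rearing in the light or the dark was compared within each age and genotype, and no member was called in any of the 6 comparisons in the joint model. A model of the compared groups alone called 4 members in P21 GR-Con and 0 in the other 5 comparisons. The share of all genes called was 0% at P14 in both genotypes, 1.25% at P21 and 0.421% at P28 in GR-Con, and 0.14% at P21 and 0.649% at P28 in GR-KO. Unadjusted p was below 0.05 for 4, 7 and 12 members at P14, P21 and P28 in GR-Con and for 0, 17 and 5 in GR-KO. DESeq2 called 1 member at P28 in GR-Con and 0 in the other 5 comparisons.

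The median of these differences changed sign with age and genotype, as values without a call. In GR-Con, NR minus DR had a median of −0.29 at P21 (34 of 43 negative) and of 0.36 at P28 (36 positive). In GR-KO it was 0.47 at P21 (37 positive) and −0.24 at P28 (36 negative). The P28 GR-Con median included P28 NR GR-Con replicate 2, whose mean level over the 43 genes was 3.11. Replicates 1 and 3 stood at 2.19 and 2.35, beside 2.20 to 2.44 in the P28 DR GR-Con libraries. The sign of this median was not checked without replicate 2. H2-K1 in P21 GR-Con was 5.98, 5.99 and 5.75 CPM in NR and 7.33, 6.93, 9.12 and 7.59 CPM in DR, with no overlap (log2 −0.39 ± 0.16 SE, edgeR adjusted p = 0.221). At P21 the NR libraries held 17240294 to 28137389 counts and the DR libraries 38176971 to 49221787, so that depth and rearing cannot be told apart there. In P28 GR-Con the NR libraries held 32241288 to 39113714 counts and the DR libraries 41302298 to 48032718, with the same limit. Averaged over the 6 conditions no member differed by rearing (3.1% of all genes, 3 members with an unadjusted p below 0.05, 1 by DESeq2, and 1 by edgeR without P21 DR GR-KO replicate 4).

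Age gave the most calls. With the 4 arms of rearing and genotype weighted equally, P21 and P28 together were higher than P14 for 25 of 43 members and lower for 2, where 23.3% of all genes were called (11.2% higher and 12.1% lower). P28 was then lower than P21 for 21 members and higher for 1 (7.96% of all genes, 2.91% lower and 5.05% higher). Ifit3 rose by 1.13 ± 0.15 after P14 (SE, log2, edgeR adjusted p = 1.90e-07) and H2-K1 by 0.51 ± 0.072 (adjusted p = 3.61e-07). The 2 that fell after P14 were Gbp3, which fell by 0.72 ± 0.13 (SE, log2, edgeR adjusted p = 1.61e-05), and Eif2ak2, which fell by 0.38 ± 0.074 (adjusted p = 5.48e-05). Sp100 was the member that rose further from P21 to P28 (0.77 ± 0.26 SE, log2, edgeR adjusted p = 0.0326). Marker sums of other cells moved with age too. Oligodendrocyte markers summed to 219 to 432 CPM at P14, 656 to 1364 CPM at P21 and 612 to 1211 CPM at P28, and neuronal markers to 1478 to 2363, 2007 to 3358 and 2262 to 3359 CPM. Their part in the age differences was not tested.

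In the joint model most calls within an arm were in normally reared GR-KO astrocytes. With a model of the compared groups alone this arm gave 20 calls from P14 to P21 and 10 from P21 to P28, against 19 and 11 in DR GR-Con. From P14 to P21, 23 of 43 members rose and none fell (10% of all genes called, 5.22% higher), and from P21 to P28, 26 fell and none rose (2.74% of all genes called, 1.15% lower). Of these, 20 were called in both steps, and the 2 steps share the P21 libraries. Libraries of this arm held 33746260 to 35891682 counts at P14, 19049254 to 28137389 at P21 and 38884987 to 48844115 at P28. Depth and age thus cannot be told apart in this arm. Ifit3 was 1.95, 3.34 and 2.54 CPM at P14, 6.04, 14.7 and 8.44 CPM at P21, and 2.26, 3.41 and 4.45 CPM at P28. All P21 libraries lay above all libraries of the other ages, with steps of 1.90 ± 0.35 (SE, log2, edgeR adjusted p = 0.000337) and −1.53 ± 0.34 (adjusted p = 0.0103).

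Usp18 was 2.64, 2.14 and 1.74 CPM at P14, 5.57, 13.1 and 6.03 CPM at P21, and 1.96, 2.58 and 2.48 CPM at P28 in the same arm. It rose by 1.92 ± 0.36 and then changed by −1.82 ± 0.35 (SE, log2, edgeR adjusted p = 0.000380 and 0.00425). Parp14 was 4.30, 3.92 and 4.89 CPM at P14, 10.5, 16.05 and 9.51 CPM at P21, and 3.24, 3.74 and 3.74 CPM at P28. Both genes returned at P28 to about the level of P14. Mx1, the nuclear Mx GTPase of the mouse, had the steepest second step among those called (−4.48 ± 0.86 SE, log2, edgeR adjusted p = 0.00415), from 2.10, 10.9 and 2.46 CPM to 0.147, 0.0929 and 0.455 CPM. Leaving out P21 NR GR-KO replicate 2 reduced the first step to 12 calls and the second to 12, and leaving out P28 NR GR-KO replicate 1 or 2 reduced the second to 13 or 11.

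In normally reared GR-Con astrocytes, from P14 to P21, 1 member rose (13.7% of all genes called, 6.53% higher). This was Ifih1, the RNA sensor MDA5, with a log2 fold change of 0.74 ± 0.22 (SE, edgeR adjusted p = 0.0176), and 12 members had an unadjusted p below 0.05. A model of the compared groups alone called 10 members in this step, and DESeq2 called 4. No member was called without P14 NR GR-Con replicate 1, without P14 NR GR-Con replicate 2 or without P21 NR GR-Con replicate 3, and 5 were called without P14 NR GR-Con replicate 3. From P21 to P28 none was called in this arm (2.36% of all genes, 7 members with an unadjusted p below 0.05, 1 by DESeq2). Its libraries held 29500264 to 37218668 counts at P14, 17240294 to 24308989 at P21 and 32241288 to 39113714 at P28. Depth and age cannot be told apart here either. The difference between the age steps of the 2 genotypes from P21 to P28 is the GR-by-age test given above.

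In dark-reared mice 11 members rose from P14 to P21 in GR-Con (13.2% of all genes called, 6.52% higher) and 11 in GR-KO (11.5%, 5.52% higher), and none fell in either. A model of the compared groups alone called 19 and 13. Of the members called in the joint model, 6 were called in both: H2-K1, Ifit1, Ifit3, Rsad2, Rtp4 and Usp18. Ifit1 in DR GR-Con was 1.04, 0.757 and 2.28 CPM at P14 and 4.63, 4.83, 4.61 and 4.53 CPM at P21 (log2 1.77 ± 0.44 SE, edgeR adjusted p = 0.00492). The P21 libraries lay close together, and all were above those of P14. H2-K1 in DR GR-KO was 5.50, 5.10 and 3.77 CPM at P14 and 6.03, 8.201, 8.14 and 7.33 CPM at P21, also with no overlap (log2 0.63 ± 0.16 SE, adjusted p = 0.00552). Leaving out P14 DR GR-Con replicates 1, 2 or 3 gave 6, 4 or 5 calls in GR-Con. In GR-KO, leaving out P14 replicates 1, 2 or 3 gave 6, 3 or 6 calls, and leaving out P21 replicates 2 or 4 gave 7 or 4. The DR GR-KO libraries held 29861186 to 31979129 counts at P14 and 42056623 to 49221787 at P21, so depth and age cannot be told apart there.

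From P21 to P28 in the dark, 1 member fell in each genotype, where 3.91% of all genes were called in GR-Con (1.71% lower) and 3.28% in GR-KO (1.38% lower). In GR-Con this was Usp18, at 5.68, 6.72, 5.38 and 6.31 CPM at P21 and 2.25, 2.51, 4.10 and 2.44 CPM at P28 (log2 −1.09 ± 0.30 SE, edgeR adjusted p = 0.0322). In GR-KO it was Ddx60, at 6.64, 19.0, 17.9 and 23.9 CPM at P21 and 7.13, 4.53, 4.49 and 7.29 CPM at P28 (log2 −1.53 ± 0.37 SE, adjusted p = 0.0170). The Usp18 groups did not overlap, while for Ddx60 the first P21 library lay among those of P28. Neither count was stable. With a model of the compared groups alone it was 11 in GR-Con and 2 in GR-KO. With libraries left out, in GR-Con it was 0 without any of 7 of the 8 libraries (P21 replicates 1 to 4, P28 replicates 1, 2 and 4) and 4 without P28 replicate 3. In GR-KO it was 0 without P21 replicate 2 or 4 or P28 replicate 3, 5 without P21 replicate 1 and 2 without P28 replicate 1.

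**Figure D4:**
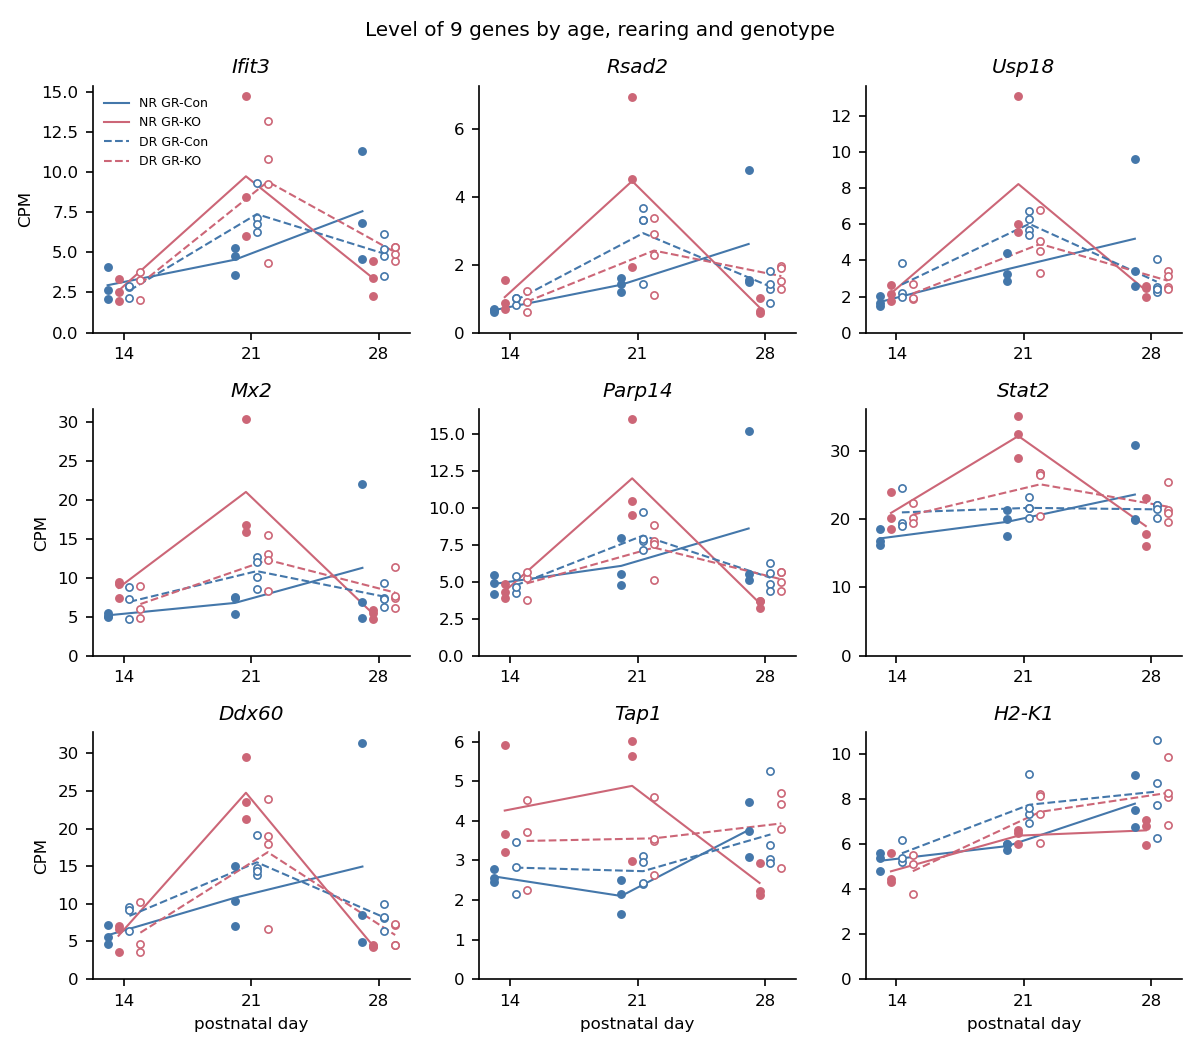
Level in CPM (vertical axis) by postnatal day (horizontal axis) of 9 genes, with 1 point per library and lines through group means, blue for GR-Con and red for GR-KO, filled points and solid lines for NR, open points and dashed lines for DR. The NR GR-KO line peaks at P21 for Ifit3, Rsad2, Usp18, Mx2, Parp14, Stat2, Ddx60 and Tap1, and H2-K1 has no such peak. For Tap1 the NR GR-KO libraries of P14 (3.21 to 5.91 CPM) and P21 (2.99 to 6.02 CPM) overlap, and the step was not called.

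The level of P21 NR GR-KO was the highest of the 12 group means in 31 of the 43 genes. The lowest group mean was P28 NR GR-KO in 13 genes and P14 NR GR-Con in 10. The highest single library was P21 NR GR-KO replicate 2 in 21 genes and P28 NR GR-Con replicate 2 in 12. Of the 5 MHC class I genes tested, none was called from P14 to P21 in NR GR-KO, and Tap1 was the 1 that fell from P21 to P28 (−1.02 ± 0.28 SE, log2, edgeR adjusted p = 0.0391). H2-K1 had its highest library in P28 DR GR-Con (10.6 CPM) and its lowest in P14 DR GR-KO (3.77 CPM).

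Genes of the wider pathway, from lists that do not hold the 46, were read beside them. Of 16 interferon ligand genes none passed the filter on low counts, Ifnb1 was listed at 0 in all 40 libraries, and the highest value of any ligand in any library was 0.121 CPM, for Ifnab. The type I receptor subunits were present throughout, with Ifnar1 at 32.3 to 43.3 CPM and Ifnar2 at 14.4 to 21.5 CPM, and neither was called for GR loss. Among 19 receptors, kinases and other signalling genes of the pathway, 1 fell with GR loss at P28 NR, where 1.54% of all genes did. This was Ifngr1, a subunit of the interferon-gamma receptor, at 17.8, 17.3 and 15.5 CPM in GR-Con and 11.99, 13.4 and 14.6 CPM in GR-KO (log2 −0.34 ± 0.10 SE, edgeR adjusted p = 0.0452), and its call was lost in 4 of the 6 fits with a library left out.

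Of 49 other interferon-induced genes tested, 7 rose and 1 fell with GR loss at P21 NR, and 4 fell and none rose at P28 NR, beside 4.67% higher and 1.54% lower over all genes in these comparisons. Tdrd7, a tudor domain protein, rose by 0.54 on the log2 scale (edgeR adjusted p = 0.000107), from 27.2, 25.4 and 28.5 CPM to 38.1, 42.6 and 37.0 CPM. Gbp7, a guanylate-binding GTPase, rose by 0.95 (adjusted p = 0.00340), from 8.08, 6.70 and 9.56 CPM to 12.4, 19.9 and 15.1 CPM, and both genes kept the call when any 1 library was left out. Uba7, the enzyme that activates Isg15, was 0.359, 0.599 and 0.839 CPM in GR-Con and 1.79, 1.63 and 2.03 CPM in GR-KO (1.56, adjusted p = 0.00870), and lost the call without GR-Con replicate 1. The gene that fell was Slfn5, with a log2 change of −1.73 to −1.25 over the 6 fits with a library left out. Its call was lost in 2 of them. Tdrd7 was also called higher at P21 DR, where 6.68% of all genes were called, and lost that call in 5 of 8 such fits. Irgm1, an immunity-related GTPase, was 7.44, 11.99 and 9.84 CPM in GR-Con and 5.34, 5.18 and 6.87 CPM in GR-KO at P28 NR. It fell by 0.75 on the log2 scale (adjusted p = 0.00332) with no overlap, and unlike the 10 members it kept the call without any 1 library (adjusted p of 0.000919 to 0.0487). Irgm1 was also called higher in NR than in DR at P28 in GR-Con, where 0.421% of all genes were called. That call was lost in 4 of the 7 fits with a library left out, and depth and rearing cannot be told apart in it. From P14 to P21 in NR GR-KO, 15 of the 49 rose and 1 fell (5.22% of all genes higher), and from P21 to P28, 14 fell and 1 rose (1.15% of all genes lower).

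Among 18 genes of nucleic acid sensing upstream of interferon, Tlr3, the endosomal sensor of double-stranded RNA, was the 1 that rose at P21 NR, where 4.67% of all genes did. It was 20.3, 22.9 and 21.3 CPM in GR-Con and 32.2, 31.3 and 31.1 CPM in GR-KO (log2 0.55, edgeR adjusted p = 0.00974), with narrow, separate groups, although the call was lost without GR-Con replicate 1 (adjusted p of 0.0556). It was also higher in GR-KO at P21 DR (0.38, adjusted p = 0.0408). That call was lost on leaving out any of 6 of the 8 libraries, all but GR-Con replicate 3 and GR-KO replicate 1. At P28 NR the 1 that rose was Traf3, an adaptor of these sensors, at 83.3, 92.7 and 89.1 CPM in GR-Con and 110, 120 and 97.6 CPM in GR-KO (log2 0.30 ± 0.074 SE, edgeR adjusted p = 0.0116), and its call was lost in 3 of the 6 fits with a library left out. Of 15 other genes of MHC class I and antigen processing, 1 rose and 1 fell at P21 NR, where 7.23% of all genes were called. Tap2, the partner of Tap1, rose by 0.64 on the log2 scale (edgeR adjusted p = 0.0184), and its call went when either GR-Con replicate 1, control replicate 2 or replicate 1 of the GR-KO libraries was left out.

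Tapbpl, a peptide editor of MHC class I, was the gene that fell, at 11.5, 9.05 and 8.81 CPM in GR-Con and 7.95, 5.18 and 6.68 CPM in GR-KO at P21 NR (log2 −0.56, edgeR adjusted p = 0.0154). It was also lower at P21 DR, at 10.7, 11.7, 10.1 and 9.59 CPM in GR-Con and 6.81, 7.96, 7.41 and 8.25 CPM in GR-KO (log2 −0.47, adjusted p = 0.0122), and at P28 DR (−0.43, adjusted p = 0.0446). The groups did not overlap in any of these 3 conditions. At P21 NR the call was lost when either replicate 1 of GR-Con or replicate 2 of GR-KO was left out. At P28 DR it was lost without any of the 4 GR-KO libraries and without replicate 1 or replicate 2 of the controls, and at P21 DR it was kept whichever library was left out. Averaged over the 6 conditions Tapbpl fell by 0.39 (adjusted p = 2.21e-06).

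How far the 43 genes moved together within groups was described by correlating each gene's deviation from its group mean with the mean deviation of the other 42, over the 40 libraries. The libraries share depth and composition effects, so no p is given. The largest mean deviation was that of P28 NR GR-Con replicate 2 (0.56), in the group of widest spread (SD 0.49). This library weighs heavily in each r, and no r was computed without it. The median r of the 43 was 0.63, with 29 above 0.5 and 19 above 0.7, against a median of −0.0028 over 17063 other genes, of which 0.697% were above 0.5. Oasl2 (0.93), Mx2 (0.91) and Ifit1 (0.90) were highest. The 5 tested MHC class I genes lay between 0.21 and 0.49, and Sp100 (−0.00060), Samd9l (0.040), Cmpk2 (0.15), Dhx58 (0.16) and Ifi35 (0.19) were below 0.2. Outside the set, the 10 genes most like it over the 40 libraries included Oas1b (0.88), Trim34a (0.88), Nlrc5 (0.87), Gbp7 (0.86), Rnf213 (0.85), Iigp1 (0.85), Gbp6 (0.85), Trim30d (0.83) and Igtp (0.79).

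**Figure D5:**
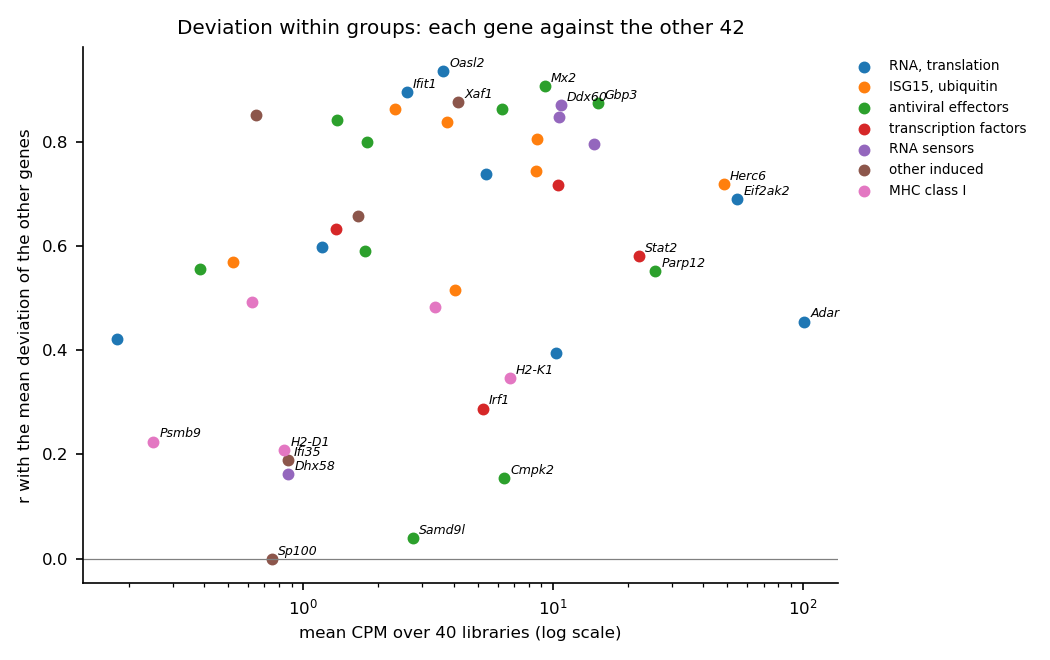
Correlation r of each gene's within-group deviation with the mean deviation of the other 42 genes over 40 libraries (vertical axis) against its mean level in CPM (horizontal axis, log scale), 1 point per gene, coloured by role. Oasl2 (0.93), Mx2 (0.91) and Ifit1 (0.90) lie at the top, and Samd9l (0.040) and Sp100 (−0.00060) at the bottom.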

How the data were processed

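The authors sorted GFP-positive nuclei from V1, sequenced their RNA and deposited 1 table of read counts per gene, as whole numbers without normalisation. The submitters' processing notes name STAR, Subread (featureCounts), DESeq2 and mm10. Counting was over gene bodies, introns included, so long genes gather more counts, and of the strand setting the sources used here say nothing.

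All 40 libraries entered 1 edgeR 4.0.16 model (R 4.3.3) of the 12 group means, with filterByExpr, TMM factors (0.882 to 1.07) and quasi-likelihood F tests, which kept 17106 genes (3732 of 25239 had no count). Adjusted p is Benjamini-Hochberg over all genes of a comparison. A call was an adjusted p below 0.05, for GR loss also an absolute log2 change over 0.1 and for age over 0.3. SE is the log2 change divided by the square root of F. The biological coefficient of variation was 0.132. Libraries of a group were distinct (chi-square per degree of freedom 7.38 to 144 over 48 pairs). Each was a separate pool of mice.

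Members, roles and lists were chosen with earlier results of these data known. Values by library were given for Nr3c1 and for members called for GR or rearing (up to 6 a comparison, by smallest p). They were also given for the member of each role with the highest mean and that with the most calls. From each other list up to 4 called genes were picked, and values by library were given for some of them. The genes most like the set were given by r. The values of 1 gene outside the set are not reported here. Other members called for age were named by their calls, and Hif3a was added after seeing its values. Alternatives were other size factors and the Wald test (DESeq2 1.42.0), no low-count filter, a model of the compared groups alone, a block for replicate number, and omission of each library or of 3 libraries that stood apart in an earlier analysis (replicate 2 of P21 DR GR-Con, replicate 1 of P21 NR GR-Con and replicate 3 of P14 NR GR-KO). Omitting the 2 libraries of highest member level was added after seeing the data. Scripts were tested on simulated counts.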

Additional observations from a re-analysis of the deposited data

Results flagged for a closer look

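Among 72 groups of 4 libraries examined for the named genes, 6 held a library whose gap to the others passed Dixon's 95% limit, where chance gives about 1 in 20. Stat2 was lowest in P21 DR GR-KO replicate 1 (20.4 CPM), and Rsad2 was lowest in P21 DR GR-Con replicate 4 (1.43 CPM). Dtx3l was highest in P21 DR GR-KO replicate 4 (4.82 CPM), Rtp4 in P28 DR GR-KO replicate 4 (1.31 CPM), Usp18 in P28 DR GR-Con replicate 3 (4.10 CPM) and Parp12 in P28 DR GR-Con replicate 1 (41.2 CPM). No library appeared in more than 1 of these 6.

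In 10 genes the effect of GR loss in normal rearing differed between P28 and P21 by the edgeR test of the difference itself. The log2 differences were −3.54 for Ifit1, −2.27 for Ifit3, −2.36 for Usp18, −2.70 for Mx2, −1.25 for Irf9, −1.03 for Stat2, −2.97 for Ddx60, −3.47 for Rsad2, −2.24 for Parp14 and −1.85 for Tap1. In each of the 10 the fold change was positive at P21 and negative at P28. None was called without P28 NR GR-Con replicate 2. With the compared groups alone in the model 0 of them were called.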

How the results depend on the processing

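No called member changed the sign of its log2 change in that comparison under any alternative in which it was tested. Medians and values without a call were not checked for sign. Precision was limited by 3 or 4 libraries a group, by levels below 1 CPM in 10 genes and by 2 libraries, P21 NR GR-KO replicate 2 and P28 NR GR-Con replicate 2, that carried much of the spread. The largest shift of the median of all genes between scalings was 0.024 (log2). Where a count moved by over 1.5 times the cause was not tested, beyond fewer libraries in the alternatives that leave some out.

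Counts of members called are given as the value in the report followed by the alternative. With only the groups compared they were 0 and 1 for GR loss at P14 NR, 10 and 1 for GR loss at P28 NR, 0 and 4 for light against dark in P21 GR-Con, 1 and 10 for P21 against P14 in NR GR-Con, 0 and 1 for P28 against P21 in NR GR-Con, 26 and 10 for P28 against P21 in NR GR-KO, 11 and 19 for P21 against P14 in DR GR-Con, 1 and 11 for P28 against P21 in DR GR-Con, 1 and 2 in DR GR-KO, and 10 and 0 for the difference between the GR effects in NR. The DESeq2 Wald test gave 16 for GR loss at P28 NR, 1 at P28 DR, 1 for light against dark in P28 GR-Con, 1 for light against dark averaged over conditions, 4 and 1 for the age steps in NR GR-Con, 5 and 4 from P21 to P28 in DR GR-Con and GR-KO, and 19 for the difference in NR. DESeq2 size factors and no filter each gave 2 for P21 against P14 in NR GR-Con.

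Without the 3 libraries that stand apart the counts were 4 for GR loss at P21 NR, 6 for the difference in NR, 3 for mean GR loss, 0 for P21 against P14 in NR GR-Con and 0 for P28 against P21 in DR GR-Con. Without the 2 libraries of highest level, chosen after seeing the data, they were 8 at P21 NR, 1 at P28 NR, 1 at P28 DR, 8 for mean GR loss, 0 for the difference in NR, 6 for P21 against P14 in NR GR-Con, 15 for P28 against P21 in NR GR-KO, 6 in DR GR-Con and 9 in DR GR-KO.

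Same-numbered libraries were little alike on average: the correlation of deviations averaged 0.046 over 56 such pairs, from −0.43 to 0.57, with 18 above 0.1. Pairs of different number were not compared, so this cannot settle whether some samples were paired. With replicate number as a block the counts were 9 at P21 NR and 7 at P28 NR, 1 for the difference in NR, 3 for P21 against P14 in NR GR-Con and 2 for P28 against P21 in DR GR-Con.

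Leaving out each library in turn gave 3 to 10 calls for GR loss at P21 NR, 0 to 17 at P28 NR, 0 to 1 at P21 DR, 0 to 16 for the difference in NR, 3 to 8 for mean GR loss and 0 to 1 for mean light against dark. For P21 against P14 it gave 0 to 5 in NR GR-Con, 12 to 21 in NR GR-KO, 4 to 10 in DR GR-Con and 3 to 14 in DR GR-KO. For P28 against P21 it gave 11 to 23 in NR GR-KO, 0 to 4 in DR GR-Con and 0 to 5 in DR GR-KO. The range of the library means was 1.17, 1.08 to 1.17 with a library left out and 1.48 with a pseudocount of 0.25. The share of members with the response element was 52.8%, against 9.76% of all genes. With the longer form it was 25.0%, against 0.303% of all genes.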
